A study of Mus musculus with 9 samples.

Results

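The 8 genes described here encode adrenergic receptors and parts of the cyclic AMP pathway behind them: Adrb1, Adra1a, Adra1b, Grk5, Gnas, Adcy5, Adcy6 and Rgs2. They were chosen by name, as the rows of the count files whose mouse Ensembl IDs carry these symbols, and make up 8 of 53465 gene IDs. RNA was sequenced from the infarct border zone of the heart, and all 3 groups are NOD-SCID mice, which lack most of their adaptive immune system. The groups are hearts with sham surgery, hearts whose coronary artery was ligated, and ligated hearts implanted with cells that the labels call FOXO3-GE-MPCs, with 3 libraries each. For cell replicates 2 and 3 one label names another FOXO member than the title and treatment do; these were followed, and the labels do not expand the name of the cells. Age, sex and time after surgery are not given in the sources used here, nor is any group with unmodified cells.

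Noradrenaline and adrenaline drive the heart mainly through the beta1 receptor, which uses the stimulatory G protein to switch on adenylyl cyclase. The cyclic AMP made there activates protein kinase A, which phosphorylates calcium handling and contractile proteins and so raises the rate and force of the beat. Alpha1 receptors use another G protein, Gq, and phospholipase C. Receptor kinases and arrestins silence occupied receptors, phosphodiesterases break cyclic AMP down, and RGS proteins shorten the active time of G proteins.

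Between them the libraries held 4549268 to 7515052 gene counts, and 3 counts correspond to 0.375 to 0.639 CPM (counts scaled to a common library size with TMM factors). All 8 genes passed the filter on low counts. Nothing in the labels says whether libraries came from separate mice, so p-values measure the spread between these libraries, which may be technical. The file headers of sham replicates 1 and 2 share a name stem, as do those of ligation replicates 2 and 3. In bulk tissue, fewer cells of a type and less RNA per cell cannot be told apart. Summed CPM of 10 cardiomyocyte markers ran from 67792 to 70149 in sham, 51882 to 54297 in ligation and 51765 to 52833 with cells, so these markers were abundant in every library of the labelled tissue. The 7 fibroblast markers summed to 2278 to 2337, 4259 to 4357 and 3976 to 4080 CPM, and the 6 endothelial markers to 1935 to 2051, 1268 to 1338 and 1388 to 1426. For 7 macrophage markers the sums were 645 to 698, 1163 to 1198 and 474 to 488 CPM, with 6 higher after ligation and all 7 lower with cells than in ligation alone (adjusted p under 0.05, edgeR). The 7 smooth muscle and pericyte markers summed to 752 to 795, 589 to 615 and 613 to 626 CPM, and the 5 atrial markers to 474 to 565, 845 to 1611 and 1569 to 2179, although after ligation 3 atrial markers were called lower and 2 higher (median log2 fold change -0.25). The 5 adipocyte markers summed to 1448 to 1634, 1121 to 1203 and 1190 to 1349 CPM, the 6 Schwann cell and neuron markers to 29.9 to 35.6, 55.6 to 69.9 and 79.2 to 94.3, and the 6 skeletal muscle markers to 910 to 976, 1222 to 1319 and 1818 to 1856. The adipocyte sum after ligation and the skeletal muscle sum with cells against ligation moved against the median change of their markers. After ligation the skeletal muscle sum did follow its markers, with 3 of the 4 tested called higher and 0 lower. After ligation 4 of the 5 adipocyte markers were called higher and 1 lower (median log2 fold change 3.69), and with cells against ligation 2 of the 4 tested skeletal muscle markers were called lower and 1 higher (median -1.30). No marker was at 0 in every library. The part of these shifts in the results on the 8 genes was not tested.

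Promoter sequence was taken from RefSeq (build GRCm38.p6) for 6 of the 8 genes in 10 windows; Adra1a and Adcy6 had none in that table. The letters TGACG, the core of the cyclic AMP response element that CREB proteins bind, were searched on both strands in the 250 bases before each start, together with the full element TGACGTCA, which contains them. No member window held the full element, against 1.55% of 32851 windows of that length. The core, which 17.8% of all windows hold, was present before a start of Adrb1, Gnas and Rgs2. In Gnas it lay in bases annotated as exon, in 3 windows of which 2 overlap, so member windows are not separate promoters and their number is not compared with that share. Rgs2 carried it at 185 and 67 bases before the start, and Adrb1 at 90. The windows printed are those of Rgs2 and Adrb1, which hold the core, and of Grk5 and Adcy5, which rose after ligation and do not hold it. Each is written 5′ to 3′ on the gene's strand with the core, or its reverse complement, in capitals; the stretch of Rgs2 ends where annotated exons begin.
Rgs2 (chr1:144004162-144004399, minus strand): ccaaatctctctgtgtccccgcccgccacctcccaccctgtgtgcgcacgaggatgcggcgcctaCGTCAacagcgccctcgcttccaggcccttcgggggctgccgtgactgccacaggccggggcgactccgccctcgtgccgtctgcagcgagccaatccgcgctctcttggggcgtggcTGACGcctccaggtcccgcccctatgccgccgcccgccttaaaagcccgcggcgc
Adrb1 (chr19:56721867-56722116, plus strand): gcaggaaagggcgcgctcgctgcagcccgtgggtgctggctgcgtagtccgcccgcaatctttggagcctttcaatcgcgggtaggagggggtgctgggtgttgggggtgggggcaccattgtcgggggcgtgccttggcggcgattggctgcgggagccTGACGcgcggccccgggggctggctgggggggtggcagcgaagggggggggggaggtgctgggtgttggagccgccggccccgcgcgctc
Grk5 (chr19:60889499-60889748, plus strand): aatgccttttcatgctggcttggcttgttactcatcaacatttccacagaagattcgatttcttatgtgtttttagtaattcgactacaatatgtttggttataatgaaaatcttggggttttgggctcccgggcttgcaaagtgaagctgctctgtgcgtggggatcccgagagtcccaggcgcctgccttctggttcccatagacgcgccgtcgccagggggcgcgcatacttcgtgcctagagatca
Adcy5 (chr16:35154614-35154863, plus strand): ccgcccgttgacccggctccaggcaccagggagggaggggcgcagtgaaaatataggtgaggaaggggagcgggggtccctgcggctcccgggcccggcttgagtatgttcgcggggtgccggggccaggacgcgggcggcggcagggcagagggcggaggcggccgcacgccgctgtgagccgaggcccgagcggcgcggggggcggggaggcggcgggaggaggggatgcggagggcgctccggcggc
A match is a string of letters and no evidence of binding, and its absence covers only this window.

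After ligation the receptor kinase gene Grk5 rose 2.10-fold and the cyclase gene Adcy5 1.64-fold, while the alpha1b receptor gene Adra1b fell by 38.6%. These 3 of 8 genes (37.5%) passed an adjusted p of 0.05 in edgeR's quasi-likelihood test, against 38.2% of the 13825 genes tested, so the share called was near that of all genes. Higher were 2 of 8 (20.1% of all genes) and lower was 1 of 8 (18.0%). In hearts with cells 1 of the 8 genes (12.5%) was called against ligation, beside 9.87% of all genes, again a share near the background: Rgs2 was lower by 25.9% (lower were 5.69% of all genes), and 0 of 8 were higher (4.19% of all genes). Adra1a and Adra1b were higher at an unadjusted p under 0.05 (edgeR 0.0489 and 0.0234), Grk5 and Adcy6 were lower (0.0159 and 0.0193), and DESeq2 called Rgs2 alone too. The median log2 fold change of the 8 genes was -0.08 after ligation and 0.00 with cells, beside 0.01 and 0.00 over all genes tested; with library totals alone in place of TMM factors the median over all genes after ligation was 0.20.

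**Figure D1:**
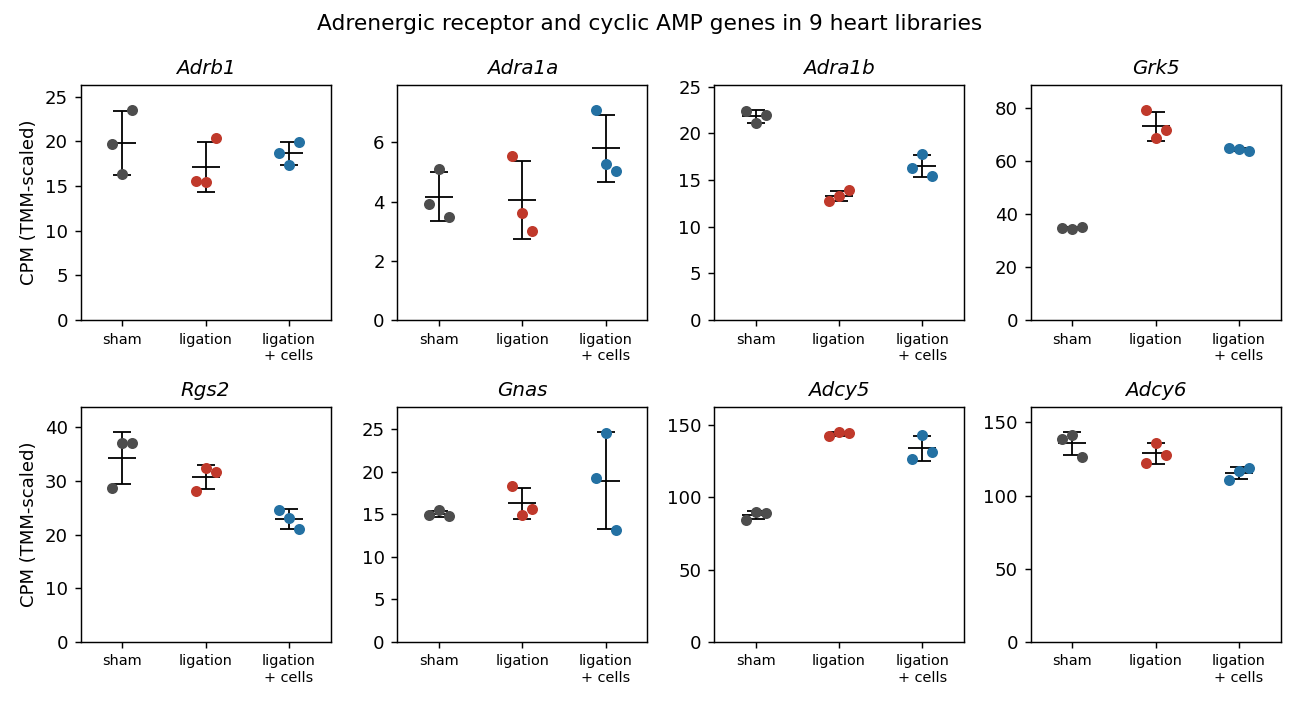
CPM (vertical axis, TMM-scaled, from 0) of each of the 8 genes in sham, ligation and ligation with cells; points are libraries, horizontal dashes means and bars SDs over 3 libraries. Grk5 and Adcy5 stand higher and Adra1b lower in every ligated library than in sham, and Rgs2 is lowest in the libraries with cells.

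Among the receptors, Adra1b (ENSMUSG00000050541; chr11:43774606-43901210, minus strand, GENCODE annotation of GRCm38) encodes the alpha1b receptor, which couples to Gq. It was at 22.4, 21.1 and 21.9 CPM in the sham libraries, 12.8, 13.3 and 13.9 after ligation, and 16.3, 17.8 and 15.4 with cells. All sham libraries lay above all ligated ones, and the libraries with cells lay between the other groups without overlap. The fall after ligation was 0.70 on the log2 scale (SE 0.121, edgeR adjusted p 9.48e-05). Between cells and ligation the difference of 0.30 (95% interval 0.05 to 0.56) did not pass after adjustment (edgeR adjusted p 0.139). Against sham the cell group was lower by 24.3% (log2 fold change -0.40, SE 0.116, edgeR adjusted p 0.00864); with library totals alone in place of TMM factors that call was lost (-0.24, adjusted p 0.0989). The endothelial marker sum stood in the same order as Adra1b (1935 to 2051, 1268 to 1338 and 1388 to 1426 CPM). The group means of the smooth muscle and pericyte sum (769, 605 and 620 CPM) and of the adipocyte sum (1564, 1166 and 1252) did so too. The part of these markers was not tested.

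Adrb1 (ENSMUSG00000035283; chr19:56722199-56733113, plus strand), the main receptor for catecholamines on heart muscle cells, did not pass in any comparison. Its levels were 19.8, 16.3 and 23.5 CPM in sham, 15.6, 15.5 and 20.4 in ligation, and 18.7, 17.3 and 19.9 with cells, and all 3 groups overlapped. The log2 difference of ligation from sham was -0.20, with a 95% interval of -0.50 to 0.11 (edgeR adjusted p 0.316). A fall of up to 0.50 is therefore within the interval. Between cells and ligation it was 0.10 (-0.20 to 0.41, edgeR adjusted p 0.732).

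Adra1a (ENSMUSG00000045875; chr14:66635251-66771168, plus strand), the other alpha1 receptor gene among the 8, had only 22 to 50 counts per library, so its precision was limited by depth. CPM values were 3.92, 5.11 and 3.49 in sham, 5.54, 3.62 and 3.0 in ligation, and 7.09, 5.27 and 5.04 with cells. The groups overlapped. Cells against ligation gave a log2 difference of 0.57 with an interval of 0.00 to 1.14, which did not pass (edgeR adjusted p 0.216).

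Per kilobase of exon, Adra1b stood highest in sham at 6.45 ± 0.20 CPM per kb (SD, n = 3), next to Adrb1 at 5.87 ± 1.06, with overlapping libraries; both have 3382 bases of exon. Adra1a followed at 0.478 ± 0.0959. After ligation the order was Adrb1 (5.07 ± 0.829) before Adra1b (3.94 ± 0.161), whose libraries no longer overlapped. The share of Adra1b in the summed CPM per kb of all 9 adrenergic receptor genes was 31.2% to 37.1% in sham, 24.4% to 25.3% in ligation and 28.4% to 34.3% with cells. Ligation lay apart from both other groups, although an exact permutation test of 3 against 3 libraries cannot go below p = 0.1. Of the other 6 receptor genes 4 were tested, and 0 passed in any comparison, nor did any have an unadjusted p under 0.05 (edgeR) or a call in DESeq2. The filter on low counts removed Adra2a and Adrb3, which were therefore not tested. Adrb3 had 0, 0 and 0 counts in sham, 3, 6 and 16 in ligation, and 8, 2 and 10 with cells. Adra2a had 2, 0 and 0, then 4, 2 and 5, and then 6, 5 and 10.

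Grk5 (ENSMUSG00000003228; chr19:60889749-61095968, plus strand) encodes a kinase that phosphorylates occupied receptors so that arrestins can bind. It was at 34.7, 34.1 and 35.1 CPM in sham, 79.1, 68.4 and 71.5 in ligation, and 64.7, 64.4 and 63.5 with cells. Every ligated library stood above every sham library, and the libraries with cells lay just below those with ligation alone. The change after ligation was 2.10-fold (log2 fold change 1.07, SE 0.0743, edgeR adjusted p 3.89e-10). The fibroblast marker sum stood in the same order over the 3 groups (2278 to 2337, 4259 to 4357 and 3976 to 4080 CPM), and its part in the Grk5 change was not tested. Cells against ligation gave -0.18, with a 95% interval of -0.32 to -0.04, which did not pass after adjustment over all genes (edgeR adjusted p 0.107). Against sham the cell group was 1.85-fold higher (0.89, SE 0.0745, edgeR adjusted p 5.51e-09).

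Measured per kilobase, Grk5 made up 13.8% to 14.3% of the summed level of the 5 receptor kinase genes Grk2 to Grk6 in sham, 24.6% to 25.6% in ligation and 24.1% to 24.7% with cells. Grk2, which had the highest level of the 5, held 53.01% to 56.1%, 44.9% to 49.02% and 47.7% to 48.7%. In sham Grk6 (7.97 ± 0.218 CPM per kb) stood above Grk5 (4.91 ± 0.0701), and in ligation Grk5 (10.35 ± 0.774) stood above Grk6 (8.16 ± 0.469; SD, n = 3). The CPM of Grk2 did not pass in any comparison, with log2 differences of 0.03 after ligation and -0.11 with cells (edgeR adjusted p 0.752 and 0.401).

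**Figure D2:**
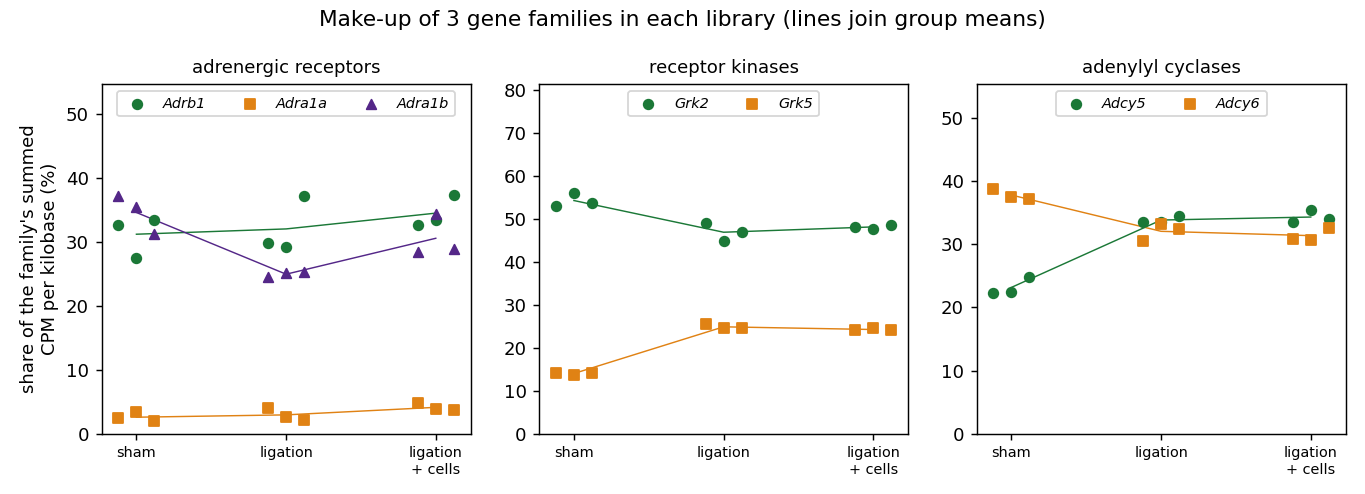
Share of each family's summed CPM per kilobase of exon (vertical axis, percent, from 0) in each library of the 3 groups, for 9 adrenergic receptor, 5 receptor kinase and 10 adenylyl cyclase genes; points are libraries and lines join group means. The Adcy5 share lies between 22.2% and 24.8% in sham and between 33.4% and 35.4% in all ligated libraries, and the Grk5 share shifts likewise.

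Adcy5 and Adcy6 encode the main adenylyl cyclases of heart muscle, and after ligation Adcy5 passed the test and Adcy6 did not. Adcy5 (ENSMUSG00000022840; chr16:35154877-35305738, plus strand) was at 84.5, 89.8 and 89.5 CPM in sham, 142, 145 and 144 in ligation, and 127, 143 and 132 with cells. No sham library reached a ligated one, while ligation and cells overlapped. The increase after ligation was 1.64-fold (log2 fold change 0.71, SE 0.0615, edgeR adjusted p 1.02e-08), and with cells against ligation the log2 difference was -0.10 (95% interval -0.23 to 0.02, edgeR adjusted p 0.314). Against sham the cell group was 1.52-fold higher (0.61, edgeR adjusted p 9.43e-08). The order of the Adcy5 group means was also that of the fibroblast marker sums, whose part was not tested.

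Adcy6 (ENSMUSG00000022994; chr15:98589973-98610076, minus strand), a close relative that is likewise inhibited by calcium, was at 139, 141 and 127 CPM in sham, 122, 136 and 128 in ligation, and 111, 117 and 119 with cells. Sham and ligation overlapped, and the libraries with cells were the lowest. The log2 difference after ligation was -0.07 (95% interval -0.20 to 0.06, edgeR adjusted p 0.391). With cells it was -0.16 against ligation (-0.29 to -0.03, edgeR adjusted p 0.123) and -0.23 against sham (SE 0.0626, edgeR adjusted p 0.00535), the latter call being lost with library totals alone (-0.07, adjusted p 0.376). An antisense gene, Gm29331, overlaps 8.92% of the Adcy6 exon bases and had 0 counts in all libraries.

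Within a library the ratio of both genes needs no scaling between libraries. Per kilobase, Adcy6 was at 1.74, 1.67 and 1.5 times Adcy5 in the sham libraries, 0.910, 0.993 and 0.939 times in ligation, and 0.923, 0.864 and 0.957 times with cells. Every sham library thus had more Adcy6 than Adcy5 and every ligated library had less. The summed level of all 10 cyclase genes was 50.3 to 55.7 CPM per kb in sham, 58.4 to 60.4 in ligation and 52.9 to 56.3 with cells. Of the other 8 cyclases 5 were tested. Adcy7 rose after ligation from 30.6 ± 2.53 to 50.7 ± 0.730 CPM (SD, n = 3; log2 fold change 0.73, edgeR adjusted p 6.08e-07), and Adcy9 from 7.13 ± 0.327 to 11.2 ± 1.35 (0.64, edgeR adjusted p 0.00462). The cyclase gene Adcy4 fell by 0.60 on the log2 scale (edgeR adjusted p 2.07e-05). All 6 endothelial markers fell in the same comparison (median log2 fold change -0.64). Of 7 macrophage markers 6 were higher after ligation and all 7 lower with cells, and the fibroblast sum was 2278 to 2337, 4259 to 4357 and 3976 to 4080 CPM, while Adcy7 with cells was at 42.5 ± 2.26 CPM. The part of these markers in the changes of Adcy4 and Adcy7 was not tested.

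Gnas (ENSMUSG00000027523; chr2:174284320-174346744, plus strand) is an imprinted locus with several first exons whose main product is the stimulatory G protein alpha subunit. Its counts were 15.0, 15.5 and 14.8 CPM in sham, 18.3, 14.9 and 15.6 in ligation, and 19.3, 24.6 and 13.1 with cells. The groups overlapped, and the cell group was the most scattered. No comparison passed, the edgeR adjusted p being 0.706, 0.446 and 0.128 in the order ligation to sham, cells to ligation and cells to sham. Without cell replicate 3 the last of these log2 differences was 0.54 and passed (edgeR adjusted p 0.00624), as it did with library totals alone (0.49, adjusted p 0.0222). A gene model on the other strand, Gm20721, shares 85.4% of the exon bases of the alpha subunit transcript Gnas-208 (1466 of 1716 bases), and itself had 0 to 2 counts per library. The files list 8.09% to 8.72% of reads as ambiguous between genes, and the strand setting of the counting is not given in the sources used here. The level of the alpha subunit transcript therefore cannot be read from this count.

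Rgs2 (ENSMUSG00000026360; chr1:143999338-144004161, minus strand), which speeds up the shut-off of Gq, was the only gene of the 8 called between cells and ligation. It was at 28.7, 37.1 and 37.1 CPM in sham, 28.1, 32.4 and 31.8 in ligation, and 24.7, 23.0 and 21.0 with cells. Sham and ligation overlapped, and each library with cells lay below all others. The log2 difference was -0.15 after ligation (95% interval -0.38 to 0.08, edgeR adjusted p 0.297). Against ligation the cell group was lower by 25.9% (log2 fold change -0.43, SE 0.112, edgeR adjusted p 0.0154), and against sham by 33.3% (-0.58, SE 0.111, edgeR adjusted p 0.000261). The call against ligation was lost without ligation replicate 2 (-0.40, edgeR adjusted p 0.0752), ligation replicate 3 (-0.41, 0.0712) or cell replicate 3 (-0.38, 0.0757). The macrophage marker sum was 645 to 698 CPM in sham, 1163 to 1198 in ligation and 474 to 488 with cells, so it was lower with cells as Rgs2 was, but higher after ligation, where Rgs2 did not pass. The smooth muscle sum was 589 to 615 CPM in ligation and 613 to 626 with cells; their part in the Rgs2 difference was not tested.

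**Figure D3:**
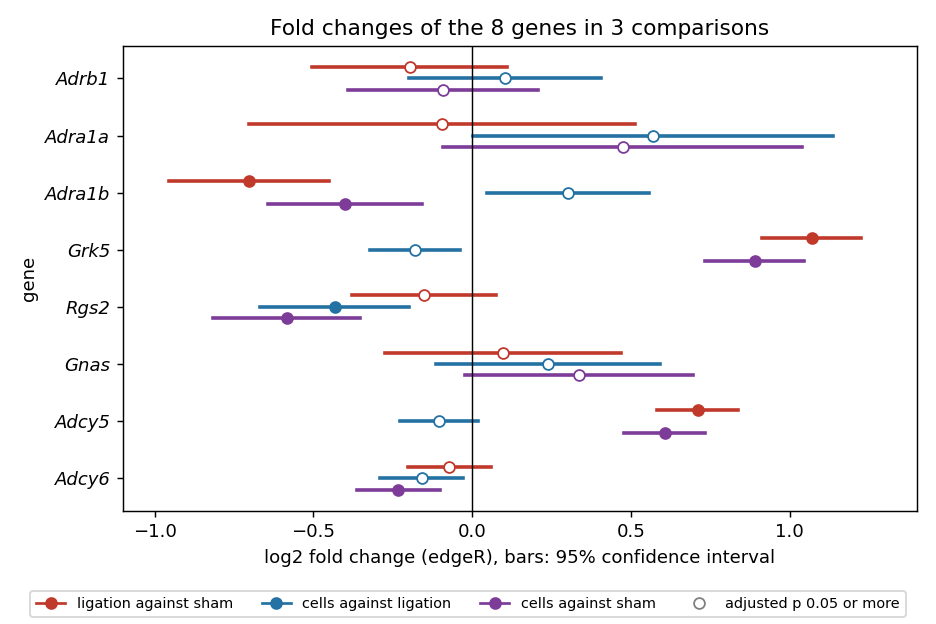
Log2 fold change (horizontal axis) of each of the 8 genes in the 3 pairwise comparisons of the groups; bars are 95% confidence intervals from edgeR, and filled points have an adjusted p under 0.05. Grk5 (1.07), Adcy5 (0.71) and Adra1b (-0.70) are filled for ligation against sham, and Rgs2 (-0.43) is the only filled point for cells against ligation.

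Cells against sham called 5 of the 8 genes (62.5%), against 40.9% of all genes: Grk5 and Adcy5 higher (21.0% of all genes were higher) and Adra1b, Adcy6 and Rgs2 lower (20.0%). Ranges of CPM did not overlap for 3 of the 8 genes between ligation and sham (47.6% of all genes), 4 between cells and ligation (27.2%), namely Adra1b, Grk5, Adcy6 and Rgs2, and 5 between cells and sham (49.8%). Each pair of comparisons shares a group of libraries.

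Genes with the most similar pattern were found for the 4 members called with a change of at least 0.5 on the log2 scale, as the smallest root mean square distance between centred log2 CPM over 9 libraries among 13794 genes. For Adra1b these were Fam213b (distance 0.0554), Itpkb (0.0585), a kinase of inositol trisphosphate, and Fitm2 (0.0619), against a median distance of 0.366. Itpkb was at 213, 128 and 155 CPM in sham, ligation and cells. Adam9 (0.0580), Ccdc80 (0.0621) and Tsc22d3 (0.0659), a glucocorticoid-induced gene, were nearest to Grk5 (median 0.517), with Tsc22d3 at 99.2, 197 and 184 CPM. Ppt1 (0.0437), Glul (0.0444), which makes glutamine, and Sparc (0.0477), a matrix protein, were nearest to Adcy5 (median 0.387). Glul was at 317, 508 and 464 CPM, and Sparc at 1018, 1593 and 1501. Pym1 (0.0877), Engase (0.0955) and Arhgef25 (0.0996) were nearest to Rgs2 (median 0.353), and Arhgef25 was at 48.8, 46.3 and 35.4 CPM.

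The rest of the pathway was covered by 11 lists with 129 other genes, of which 115 were tested. After ligation 30 rose and 20 fell (50 of 115, 43.5%, against 38.2% of all genes), with a median log2 fold change of 0.05. With cells against ligation 10 were higher and 6 lower (16 of 115, 13.9%, against 9.87%), with a median of -0.01. Cells against sham gave 31 higher and 19 lower (50 of 115, 43.5%), near the 40.9% of all genes (21.0% higher and 20.0% lower). These counts depend on the scaling: with library totals alone, 59 were higher and 11 lower after ligation (60.9% of 115, beside 45.7% of all genes, of which 4966 were higher and 1346 lower), and 53 and 16 for cells against sham (all genes 4612 and 1698). With cells against ligation the majority changed side, to 6 higher and 11 lower (all genes 436 and 927). Without 1 library the ligation count ran from 41 to 52. Leaving out ligation replicate 2 reduced the 16 calls to 8 (6.90%, beside 6.75% of all genes). Summing libraries whose headers share a stem, an alternative chosen after seeing the data, reduced them to 10 (8.62%, beside 7.83%). In both fits the share of the lists was near that of all genes.

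**Figure D4:**
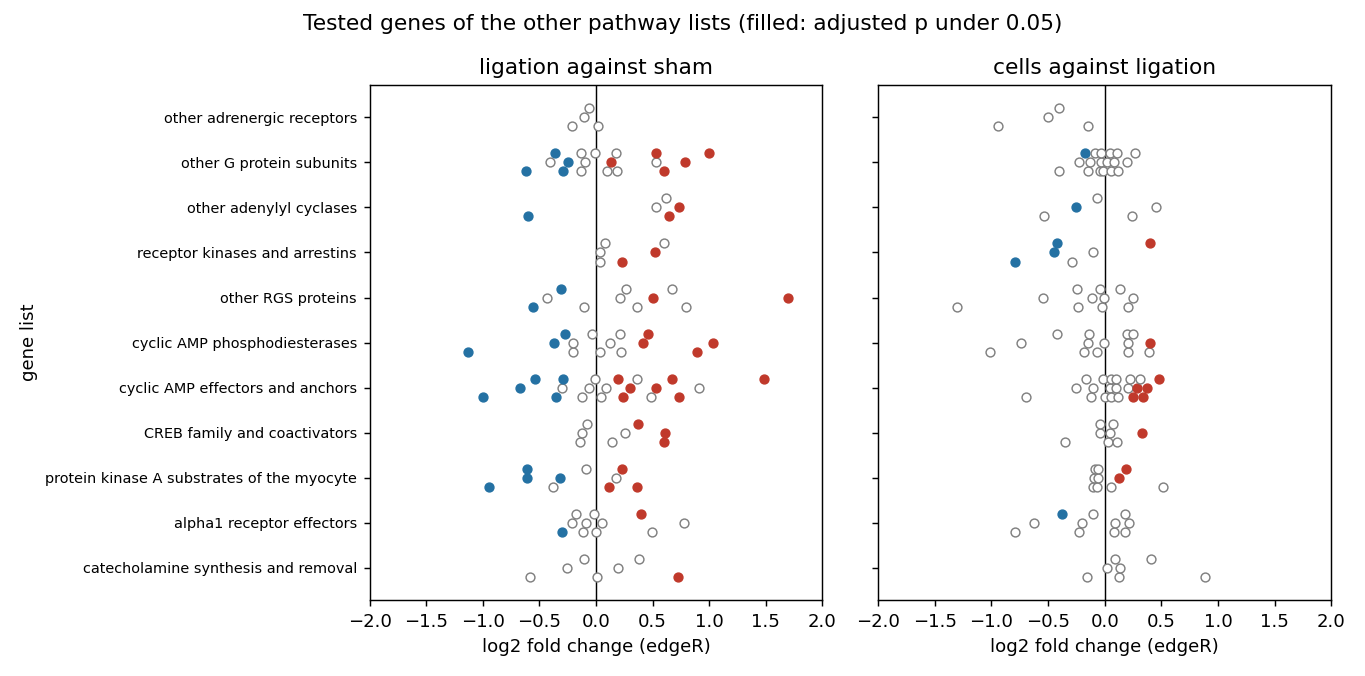
Log2 fold change (horizontal axis) of the tested genes of each pathway list (rows) for ligation against sham on the left and cells against ligation on the right; each point is a gene, filled where the edgeR adjusted p is under 0.05, red higher and blue lower. On the left 50 points are filled and on the right 16; 3 of the 6 lower ones on the right are in the list of receptor kinases and arrestins.

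The list of receptor kinases and arrestins held 6 genes. After ligation 2 were called (33.3%, against 38.2% of all genes), and with cells against ligation 4 (66.7%, against 9.87%). The arrestins Arrb1 and Arrb2, which uncouple phosphorylated receptors from G proteins, rose after ligation and fell with cells. Arrb1 was at 47.4 ± 1.29 CPM in sham, 55.4 ± 1.65 in ligation and 40.7 ± 2.16 with cells (SD, n = 3), and Arrb2 at 22.03 ± 5.89, 31.6 ± 2.46 and 18.3 ± 2.14. With cells against ligation Arrb1 fell by 0.45 (edgeR adjusted p 0.000284) and Arrb2 fell by 0.79 on the log2 scale (0.000857). Their increases after ligation were 0.23 and 0.52 (edgeR adjusted p 0.0183 and 0.00671). The increase of Arrb1 was lost without sham replicate 3 (edgeR adjusted p 0.0663) or ligation replicate 2 (0.0614) or 3 (0.0791), and that of Arrb2 without ligation replicate 3 (0.0509). DESeq2 and the summed libraries did not call the increase of Arrb1 either (adjusted p 0.0826 and 0.0821). Macrophage marker sums stood in the same order (645 to 698, 1163 to 1198 and 474 to 488 CPM); their part was not tested. The other 2 called with cells were Grk3 (higher by 0.40, edgeR adjusted p 0.0335) and Grk6 (log2 fold change -0.42, edgeR adjusted p 0.00312), both receptor kinases.

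Among 18 tested G protein subunits, 5 rose and 4 fell after ligation (50% called, against 38.2% of all genes). The inhibitory subunit gene Gnai1 rose by 0.79 (edgeR adjusted p 0.00206) and the gamma subunit gene Gng2 by 1.0 (0.00387), with Gnai1 at 6.68 ± 0.294 CPM in sham and 11.6 ± 1.14 in ligation. With cells only Gnai2 passed (5.56% of the tested subunits, against 9.87% of all genes). It fell by 0.17 (edgeR adjusted p 0.0149), a call lost without ligation replicate 2 or 3 or cell replicate 2 (adjusted p 0.0523, 0.0729 and 0.0652). Of 11 tested RGS genes 2 rose and 2 fell after ligation (36.4% called, near the 38.2% of all genes). With cells against ligation 0 passed in edgeR, beside 9.87% of all genes, although 3 had an unadjusted p under 0.05. DESeq2 called 0 there too. Rgs5, a pericyte gene, fell from 882 ± 9.25 to 599 ± 24.2 CPM (log2 fold change -0.56, edgeR adjusted p 2.66e-09). The smooth muscle and pericyte marker sum was 752 to 795 CPM in sham and 589 to 615 in ligation, with 3 of its 6 tested markers called lower and 1 higher; its part was not tested. Rgs7 rose from 0.967 ± 0.702 to 3.22 ± 1.55 CPM, near the level of 3 counts (edgeR adjusted p 0.0159). That call was lost without sham replicate 3, ligation replicate 1 or ligation replicate 3 (adjusted p 0.0888, 0.0691 and 0.0557).

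Of 14 tested phosphodiesterases, 4 rose and 3 fell after ligation (50% called, against 38.2% of all genes). Pde7b rose from 9.18 ± 1.68 to 18.9 ± 0.969 CPM (log2 fold change 1.04, edgeR adjusted p 9.25e-06), and Pde4c fell from 15.8 ± 1.41 to 7.09 ± 1.18 (-1.13, edgeR adjusted p 0.000294). With cells against ligation Pde4b alone passed (7.14% of the tested phosphodiesterases, against 9.87% of all genes). It was at 34.3 ± 2.83 against 26.2 ± 3.79 CPM (0.40, edgeR adjusted p 0.0213). That call was lost without ligation replicate 2 or 3 (adjusted p 0.144 and 0.0804), without cell replicate 1 or 3 (0.0656 and 0.101), and with the summed libraries (0.0561).

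The 21 effector and anchor genes gave 7 increases and 5 decreases after ligation (57.1% called, against 38.2% of all genes). Prkar1a, a regulatory subunit that holds protein kinase A inactive until cyclic AMP binds, rose from 501 ± 21.9 to 832 ± 5.11 CPM (log2 fold change 0.73, edgeR adjusted p 1.71e-11). Prkar2b, another regulatory subunit, rose from 3.40 ± 0.309 to 9.49 ± 2.61 CPM (1.48, edgeR adjusted p 5.21e-05). The catalytic subunit gene Prkaca was at 255, 263 and 271 CPM in the 3 groups and did not pass in any comparison (edgeR adjusted p 0.525, 0.687 and 0.183). With cells 5 of the 21 were higher than in ligation and 0 lower (23.8% called, against 9.87% of all genes). Of all genes 4.19% were higher and 5.69% lower. Akap1, which tethers protein kinase A to mitochondria, was at 103 ± 3.37 CPM in sham, 80.5 ± 3.17 in ligation and 104 ± 5.33 with cells (0.38 against ligation, edgeR adjusted p 0.000359). Popdc3, whose product binds cyclic AMP, was higher by 0.48 (edgeR adjusted p 0.0331), a call lost without ligation replicate 2 or 3 (0.0736 and 0.158) or cell replicate 2 or 3 (0.196 and 0.0668), and with the summed libraries (0.0637).

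Of 8 CREB family and coactivator genes 3 rose after ligation and 0 fell (37.5% called, near the 38.2% of all genes). Among those that rose were Creb3l2 (by 0.61, edgeR adjusted p 6.18e-07) and Atf1 (by 0.60, 1.22e-06). Creb1 was higher with cells than in ligation, at 38.3 ± 1.20 against 30.6 ± 1.01 CPM (0.33, edgeR adjusted p 0.0132), a call lost without ligation replicate 2 (0.0699), without cell replicate 2 (0.0556) and in DESeq2 (0.0577). Of 10 protein kinase A substrates 3 rose and 4 fell after ligation (70% called, against 38.2% of all genes). Tnni3, the inhibitory troponin subunit, fell by 0.95 (edgeR adjusted p 1.69e-12), and Rrad, a brake on the L-type calcium channel, fell by 0.61 (6.58e-09). Phospholamban (Pln), the brake on the calcium pump, was at 1234 ± 80.4 CPM in sham, 812 ± 74.3 in ligation and 926 ± 34.0 with cells. Of the 10 cardiomyocyte markers 7 fell after ligation, with a median log2 fold change of -0.18 over the list. Tnni3 is itself in that list and counts among the 7. The part of the other markers was not tested. Pln and Hspb6 were higher with cells by 0.19 and 0.13 (edgeR adjusted p 0.0375 and 0.0414). Pln was not called without ligation replicate 2 or 3 or cell replicate 1 or 2 (adjusted p 0.0720, 0.194, 0.105 and 0.107), and Hspb6 was not called without ligation replicate 1, 2 or 3 or cell replicate 1 or 3 (0.0974, 0.0796, 0.0880, 0.134 and 0.136). Both calls were also lost with library totals alone (0.0510 for Pln and 0.132 for Hspb6) and with the summed libraries (0.0558 and 0.0561).

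The 11 alpha1 receptor effectors gave 1 higher and 1 lower after ligation (18.2% called, against 38.2% of all genes). With cells 1 was lower (9.09% called, near the 9.87% of all genes). Prkcd, a protein kinase C gene, was at 28.3 ± 1.83 CPM in sham, 37.3 ± 1.95 in ligation and 28.6 ± 3.15 with cells (log2 fold changes 0.39 and -0.38, edgeR adjusted p 0.00338 and 0.0141). The second of these calls was lost without ligation replicate 1 (0.0540) or cell replicate 2 (0.0854). The macrophage marker sums were highest in ligation, as Prkcd was (645 to 698, 1163 to 1198 and 474 to 488 CPM), and their part was not tested. Itpr2, a calcium release channel of Gq signalling, fell by 0.30 after ligation (edgeR adjusted p 0.0124), a call lost without ligation replicate 1 (0.0626) and with library totals alone (0.343). Of 10 genes for the synthesis and removal of catecholamines 7 were tested, and only Dbh was called after ligation (14.3%, against 38.2% of all genes). Dbh, the enzyme that makes noradrenaline, rose from 5.69 ± 0.530 to 9.38 ± 0.425 CPM (0.73, edgeR adjusted p 0.00581). The Schwann cell and neuron marker sum was 29.9 to 35.6 CPM in sham, 55.6 to 69.9 in ligation and 79.2 to 94.3 with cells. Of its 5 tested markers 2 were called higher after ligation and 0 lower. Dbh with cells was at 9.57 ± 1.66 CPM. The part of these markers in the Dbh change was not tested. Adcy7 fell with cells against ligation by 0.25 (edgeR adjusted p 0.0460), a call lost without any 1 of the 6 ligation and cell libraries, where adjusted p ran from 0.0503 to 0.147, with RLE size factors (0.05005), with no filter on low counts (0.0768), with the summed libraries (0.0720) and in DESeq2 (0.159).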

How the data were processed

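RNA was measured by sequencing in 9 libraries, 3 per group, with groups and replicate numbers taken from the titles. Per the labels' protocols, total RNA came from TRIzol extraction and the library kit was NEBNext Ultra RNA. The deposited files hold whole-number counts of reads for each mouse Ensembl ID, not normalized. The submitters' processing notes name the build mm10; the aligner, counter and strand setting are not given in the sources used here. Symbols were attached to 53274 of 53465 IDs, and GENCODE annotation of GRCm38 (release M21) gave positions and exon lengths. CPM per kb divides by the union of a gene's exons.

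Counts were analysed in R 4.3.3 with edgeR 4.0.16 (filterByExpr, TMM factors, 1 mean per group over all 9 libraries, glmQLFTest, 6 residual degrees of freedom), with p-values adjusted over 13825 genes by the Benjamini-Hochberg method. A gene is called at an adjusted p under 0.05. The SE is the size of the log2 fold change divided by the square root of F. Tests are two-sided. Alternatives were other scalings and filters, DESeq2 1.42.0, fits of 2 groups, removal of mitochondrially encoded genes, a replicate block, leaving out each library, and a sum of the libraries with a shared header stem, which was added after the data had been seen. Besides the 8 members, the rule names from each pathway list the 2 largest changes in each of the first 2 comparisons among called genes with a mean of at least 1 CPM and ranges that do not overlap. Adra2a, Adrb3, Grk2, Grk3, Grk6, Adcy4 and Prkaca were named after their values were seen. The members and lists were chosen with earlier results of these data known. The pipeline was tested on simulated data. Intervals cover the spread between libraries, and floors cover counting error only. Plots used matplotlib 3.10.9.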

Additional observations from a re-analysis of the deposited data

How the results depend on the processing

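The 3 members called after ligation were the same genes in all 18 alternatives. Calls among the members with cells against ligation numbered 0 to 1 in fits that each left out 1 library, and 1 in every other alternative. Cells against sham gave 5 to 6 without 1 library and 4 with library totals alone. Pathway calls with cells against ligation numbered 8 to 16 without 1 library and 10 with the summed libraries, against 16. After ligation they numbered 41 to 52 without 1 library and 70 with library totals alone, against 50. With library totals alone the median of all genes after ligation moved from 0.01 to 0.20, and the log2 differences after ligation became 0.0909 for Adra1a, 0.115 for Adcy6 and 0.0378 for Rgs2, and that of Adrb1 in cells against sham became 0.0659. Without sham replicate 2 or ligation replicate 3 Adra1a after ligation was 0.0768 or 0.0789, and without sham replicate 3 Adrb1 in cells against sham was 0.04997. Over the fits without 1 library these ran from -0.338 to 0.0789 and from -0.220 to 0.04997. None of these reversals passed an adjusted p of 0.05, and the cause was not tested. A replicate block in the fit gave members called of 3, 1 and 5 in the 3 comparisons, the same genes as without it, and Hspb6 with cells lost its call (edgeR adjusted p 0.0582). Deviations of same-numbered libraries correlated at -0.123 to 0.144 over 9414 genes, and 5 of 18 best matches were to the same number, so the numbers were not taken to pair the libraries. Depth limits Adra1a and Rgs7, where 3 counts equal 0.375 to 0.639 CPM.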
